A study of Oryza sativa with 8 samples.

Results

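The peroxidase family of rice (Oryza sativa) was followed in RNA sequencing libraries of the shoot apical meristem. Members were chosen from the annotation text alone. An annotation had to read haem, heme or plant peroxidase, or peroxidase followed by a number or by the word precursor. Annotations that name glutathione or ascorbate were left out. The class of loci annotated only as haem peroxidases was not checked. The matching transcript model with the highest mean stood for its locus. This gave 110 models at 96 loci, of which 73 reached a value of 1 in 2 or more libraries and are the members described here. They stand among 31487 loci that passed the same filter, out of 36819 loci in all.

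Plants of 3 kinds were compared. Nipponbare, a japonica cultivar, was the control with 2 libraries. GW6a-4.6, with 3 libraries, is a chromosome segment substitution line in which a fragment of the Kasalath genome sits in a Nipponbare background. OsglHAT1-OE, with 3 libraries, is a transgenic line made in Nipponbare, so every group shares the Nipponbare background apart from the introduced segment or transgene. The gene behind both lines, GW6a or OsglHAT1, encodes a histone H4 acetyltransferase, and the design asks how transcript levels differ from the control in each line. The labels give no growth stage, no promoter for the transgene, no number of independent transformants and no statement that libraries came from separate plants. The p-values therefore measure the spread between these libraries, which may be technical.

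Members annotated only as haem peroxidases may include other classes. Plant peroxidases of class III are secreted haem enzymes that use hydrogen peroxide to oxidise phenolic compounds. In the cell wall they couple monolignols into lignin and cross-link structural proteins, which stiffens the wall. They can also generate reactive oxygen that cuts wall polymers and loosens it, and they can oxidise auxin. The family is large in grasses, where many genes lie side by side on a chromosome, and the substrates of most rice members are not assigned.

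The libraries held 5207710 to 7667853 reads by the authors' scaling, and between 6140 and 14285 of the recovered read alignments fell on the 73 members. The deposited values are reads scaled to that total, and 3 reads, used as a detection floor, were worth 0.391 to 0.576. OsglHAT1-OE replicate 3 stood apart. It had 2.41 alignments for each read, where the other 7 libraries had 2.66 to 2.69, and its median-ratio factor was 0.874, where theirs lay between 1 and 1.06, so its values ran low across loci. As a check of the labels, the transcript of the gene itself, Os06t0650300-00 on chromosome 6, had values of 1.46 and 2.30 in Nipponbare, 2640, 2570 and 2910 in libraries labelled GW6a-4.6, and 13.2, 8.87 and 10.0 in libraries labelled OsglHAT1-OE. The larger rise was in the libraries labelled as the substitution line and the smaller in those labelled for overexpression, 1439-fold and 5.68-fold (limma adjusted p = 7.84e-37 and 3.79e-15, exact two-sided permutation p = 0.1 for each, the smallest that 2 against 3 libraries allow). Whether labels were exchanged between the lines cannot be decided from these values. The groups are for this reason called by their labels, and no result is read against how much of this transcript a library held. Both meristem markers were present in every group, OSH1 at 30.0 to 33.3 in Nipponbare, 88.6 to 109 in libraries labelled GW6a-4.6 and 95.7 to 112 in libraries labelled OsglHAT1-OE, and OSH15 at 47.2 to 50.2, 149.7 to 179 and 80.8 to 103 in the same order.

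Where peroxidase members differed from Nipponbare, most were higher, in either line. In libraries labelled GW6a-4.6, 38 members rose and 7 fell, with 28 not passing the test. Over all loci tested, 26.7% rose and 19.5% fell in that comparison, 46.3% in all. The members' shares were 52.1% higher and 9.59% lower. In libraries labelled OsglHAT1-OE, 37 members rose and 5 fell, 50.7% and 6.85%, against 22.8% higher and 29.7% lower over all loci, 52.5% in all. The median log2 change of the 73 members was 0.65 for libraries labelled GW6a-4.6 and 0.48 for libraries labelled OsglHAT1-OE, beside 0.07 and -0.08 over all loci tested. A call required an adjusted p under 0.05 in limma on log2 of the value plus 1, so log2 changes of low members are understated. Both comparisons use the same 2 Nipponbare libraries, and an offset in those libraries would move both alike. In material that mixes cells, more cells of a type and more RNA per cell cannot be told apart.

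**Figure D1:**
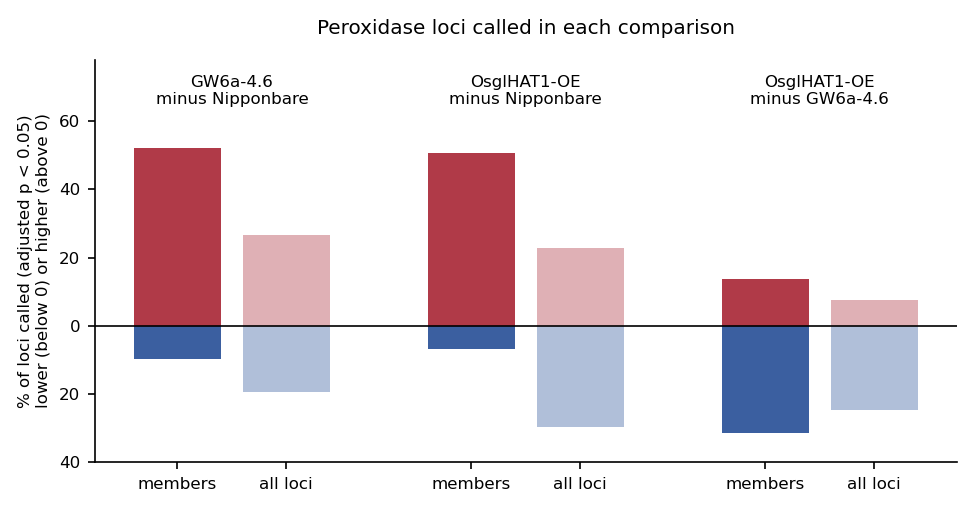
Share of loci called higher (bars above 0) or lower (bars below 0), in percent, for the 73 peroxidase members (dark) and for all 31487 loci tested (pale), in each of the 3 comparisons. Members were called higher in 52.1% and 50.7% of cases against Nipponbare, where all loci stood at 26.7% and 22.8%.

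Most of the rises had a log2 change of at least 1. Among called risers, neither this mark nor separation from Nipponbare was counted over all loci, so those counts are a description. Of the 38 risers in libraries labelled GW6a-4.6, 27 had a log2 change of at least 1, the range was 0.61 to 2.40, and in 36 of them every library lay above both Nipponbare libraries. Of the 37 risers in libraries labelled OsglHAT1-OE, 21 had a log2 change of at least 1, with a range of 0.47 to 2.72, and none of the 37 overlapped with Nipponbare. Counted by overlap alone, 40 members lay wholly above Nipponbare and 7 wholly below in libraries labelled GW6a-4.6, where 36.0% and 28.5% of all loci did so, 64.5% together. In libraries labelled OsglHAT1-OE the counts were 38 and 11, against 29.0% and 37.9% of all loci, 66.9% together. The count of 7 fallers in libraries labelled GW6a-4.6 was smaller without Nipponbare replicate 1. A single Nipponbare library was then left, and fewer of all loci were called lower too. Summed over the 73 members, the value was 1308 and 1179 in Nipponbare, 2224, 1984 and 2136 in libraries labelled GW6a-4.6, and 1995, 1863 and 1574 in libraries labelled OsglHAT1-OE. No library of either line reached down to the Nipponbare range. Without OsglHAT1-OE replicate 3, the library that stood apart, 36 members rose and 5 fell in that line. All loci then stood at 25.6% higher and 26.6% lower.

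Read as a pattern over both lines, 30 members were called higher in both, 4 lower in both and 21 in neither. Another 7 were called higher in libraries labelled GW6a-4.6 with no call in libraries labelled OsglHAT1-OE, and 7 the reverse. A single member, Os06t0274800-01, was called higher in libraries labelled GW6a-4.6 and lower in libraries labelled OsglHAT1-OE. The remaining 3 were called lower in libraries labelled GW6a-4.6 with no call in libraries labelled OsglHAT1-OE. These patterns were not counted over all loci, and both comparisons share the Nipponbare libraries. The joint counts are therefore a description and no result about the family. A call in one line and none in the other does not show a difference between the lines, which is tested directly further on.

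**Figure D2:**
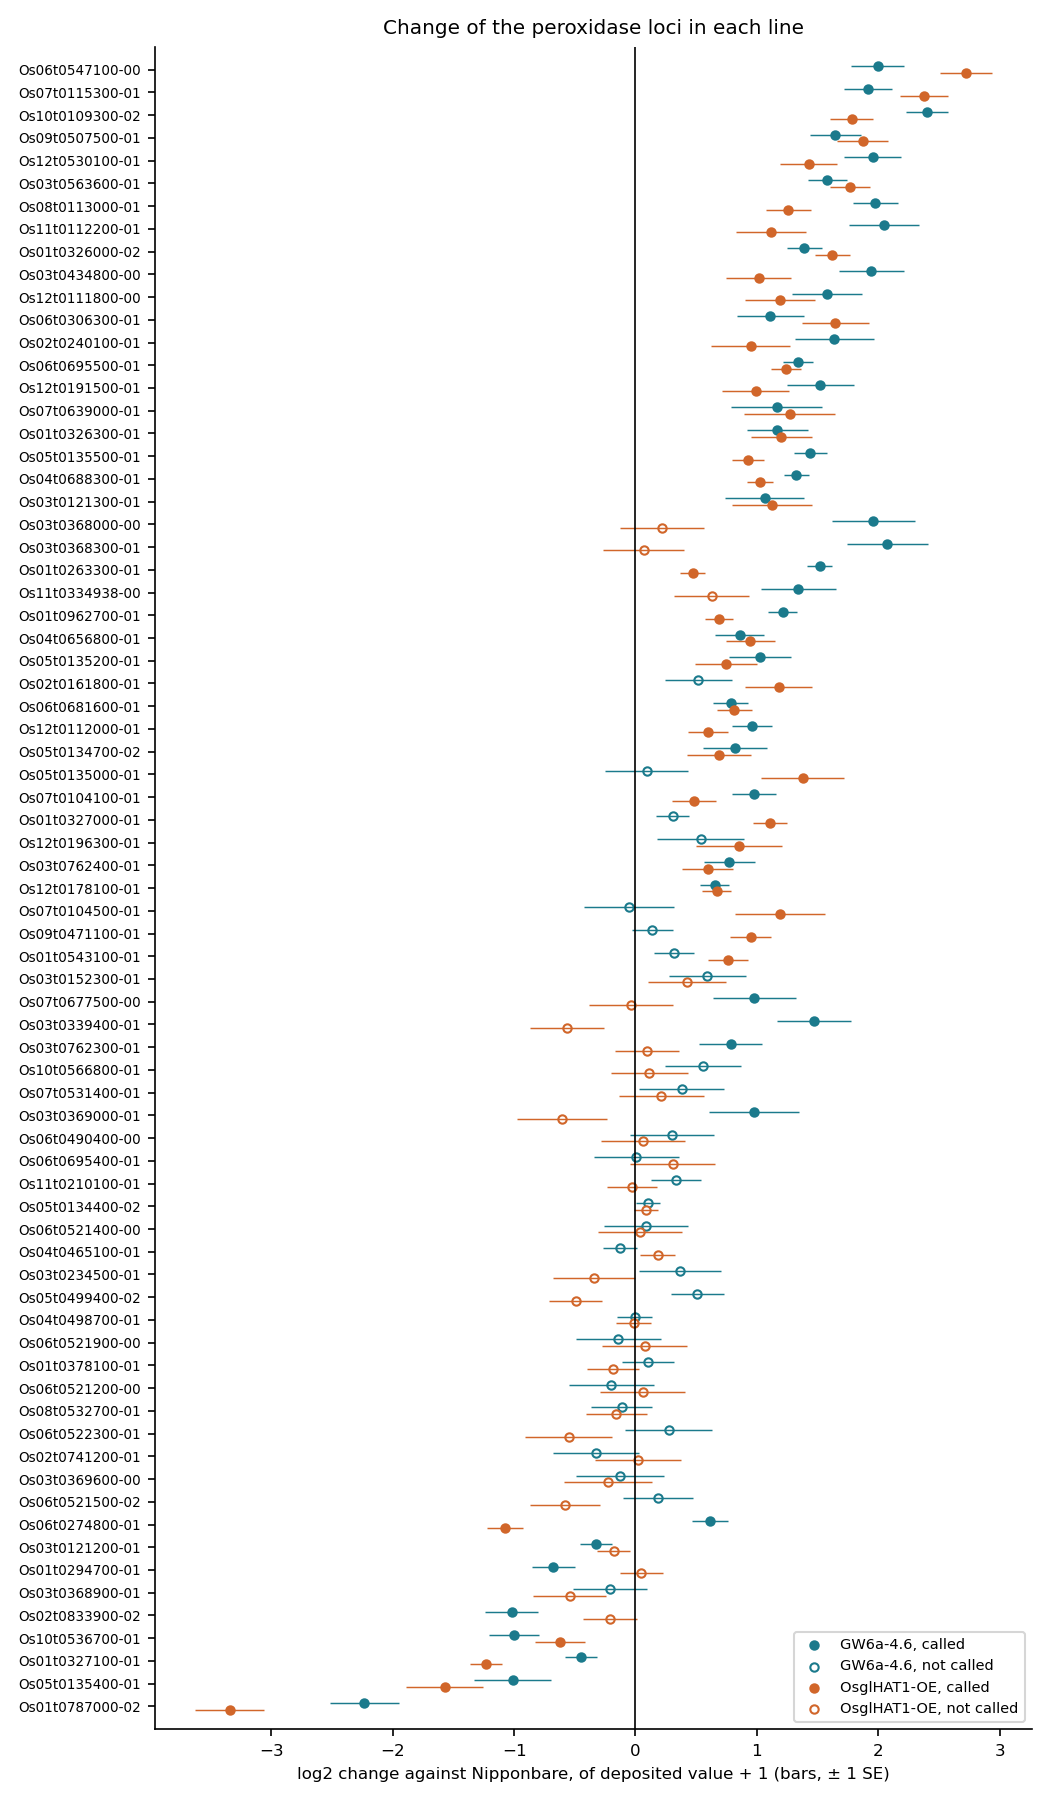
Log2 change against Nipponbare, of the deposited value plus 1, of each of the 73 members for both lines, with bars of 1 SE, filled points for called changes and members ordered by the mean of both changes. Most filled points lie right of 0, and Os06t0274800-01 is the member with filled points on both sides.

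Markers of other tissues and of the meristem were summed beside these counts. The summed value of 82 matched seed and desiccation genes was 3719 to 4072 in Nipponbare, 1258 to 1357 in libraries labelled GW6a-4.6 and 1014 to 1210.0 in libraries labelled OsglHAT1-OE. Of its 40 tested loci 5 rose and 23 fell, then 3 rose and 22 fell, and 34, 23 and 26 of the 82 were at 0 in the 3 groups. The pollen and tapetum list of 29, with 15 tested, summed to 144 to 146, then 243 to 311, then 213 to 278, with 7 higher and 2 lower, then 8 and 3, and with 13, 11 and 9 genes at 0. The 11 matched leaf genes, 9 of them tested, summed to 1960 to 2196, then 1760 to 2212, then 2241 to 2732, with 1 higher and 1 lower, then 2 and 1, and with 2 genes at 0 in each group. The 8 matched root genes, 7 of them tested, summed to 204 to 206, then 185 to 189, then 203 to 234, with 1 higher and 1 lower, then 4 and 1, and with 1, 0 and 0 genes at 0. In both lines the meristem markers OSH1 and OSH15 stood above Nipponbare in every library. The part of these shifts in the peroxidase counts was not tested.

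Among members annotated as similar to numbered peroxidases, several share a name with an Arabidopsis enzyme of lignin formation. The Arabidopsis peroxidases 72, 52, 47 and 17 have been linked to lignification there, and these data do not show what the rice loci of the same names do.

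Os01t0263300-01 on chromosome 1, similar to peroxidase 72, had values of 103 and 85.6 in Nipponbare, 283, 254 and 276 in libraries labelled GW6a-4.6 and 138, 138 and 117 in libraries labelled OsglHAT1-OE. All 3 groups were separate, with libraries labelled GW6a-4.6 highest and Nipponbare lowest. Its mean rose from 94.4 ± 12.4 (SD, n = 2) to 271 ± 14.9 (SD, n = 3), 2.87-fold (log2 change 1.52, SE 0.10, adjusted p = 1.97e-15), and to 131 ± 12.2 (SD, n = 3) in libraries labelled OsglHAT1-OE, 1.39-fold (log2 change 0.47, SE 0.10, adjusted p = 0.000165). The second locus of that name, Os01t0543100-01, took another course. It stood at 28.5 and 25.7 in Nipponbare, 34.8, 27.1 and 41.8 in libraries labelled GW6a-4.6 and 56.4, 46.4 and 38.9 in libraries labelled OsglHAT1-OE. It rose 1.74-fold in libraries labelled OsglHAT1-OE (log2 change 0.76, SE 0.16, adjusted p = 0.000162) and was not called in libraries labelled GW6a-4.6 (log2 change 0.32, SE 0.16, adjusted p = 0.11).

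Os06t0547100-00 on chromosome 6, similar to peroxidase 52, had the largest rise in libraries labelled OsglHAT1-OE among the members. Its values were 2.78 and 2.5 in Nipponbare, 15.4, 12.6 and 12.7 in libraries labelled GW6a-4.6 and 25.8, 23.1 and 20.3 in libraries labelled OsglHAT1-OE. The 3 groups did not overlap and ran upwards in that order. The rise was 5.14-fold in libraries labelled GW6a-4.6 (log2 change 2.0, SE 0.22, adjusted p = 7.35e-10) and 8.75-fold in libraries labelled OsglHAT1-OE (log2 change 2.72, SE 0.22, adjusted p = 1.91e-13). The other member with that name, Os06t0521200-00, stayed near the floor, with group means of 0.992 ± 0.0451, 0.804 ± 0.584 and 1.08 ± 0.221, and was not called.

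Os08t0113000-01 on chromosome 8, similar to peroxidase 47, had values of 6.73 and 10.4 in Nipponbare, 37.8, 33.3 and 36.8 in libraries labelled GW6a-4.6 and 20.8, 20.2 and 23.4 in libraries labelled OsglHAT1-OE. Both lines were above Nipponbare without overlap, and libraries labelled GW6a-4.6 were the highest. It rose 4.21-fold (log2 change 1.98, SE 0.18, adjusted p = 1.71e-11) and 2.51-fold (log2 change 1.26, SE 0.18, adjusted p = 3.18e-07). Os09t0471100-01 on chromosome 9, similar to peroxidase 17, moved in a single line. It had 21.5 and 23.4 in Nipponbare, 28.2, 19.7 and 27.3 in libraries labelled GW6a-4.6 and 49.5, 47.9 and 36.7 in libraries labelled OsglHAT1-OE. The first 2 groups overlapped, and every library of the last lay above them. Its rise of 1.99-fold in libraries labelled OsglHAT1-OE was called (log2 change 0.95, SE 0.17, adjusted p = 9.76e-06), while the difference in libraries labelled GW6a-4.6 was not (log2 change 0.14, SE 0.17, adjusted p = 0.535).

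Of the 15 members named after a numbered Arabidopsis peroxidase in the annotation, 10 rose and none fell in libraries labelled GW6a-4.6, and 10 rose and 1 fell in libraries labelled OsglHAT1-OE. Of the 20 with another numbered or precursor name, 14 rose and 3 fell in the first comparison and 11 rose and 2 fell in the second. The 23 annotated only as haem peroxidases held 8 risers and 2 fallers, then 9 and 1. The 11 numbered class III peroxidases gave 5 and 1, then 6 and 0, and the 4 with a plant peroxidase domain gave 1 and 1 in each comparison. The background beside these counts is that given for all loci, and the differences between the classes were not tested.

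By log2 of the value plus 1, the largest rise in libraries labelled GW6a-4.6 was at Os10t0109300-02 on chromosome 10, similar to peroxidase 54. Some members near the floor in Nipponbare had larger ratios of means. It had 6.14 and 6.14 in Nipponbare, 37.0, 35.0 and 38.4 in libraries labelled GW6a-4.6 and 26.6, 23.3 and 21.1 in libraries labelled OsglHAT1-OE. Nipponbare was lowest in both libraries and the 2 lines did not overlap. The rise was 5.99-fold (log2 change 2.40, SE 0.18, adjusted p = 3.14e-14) and 3.85-fold (log2 change 1.78, SE 0.18, adjusted p = 6.23e-11). This model is not the highest of its locus. The higher model, Os10t0109300-01, is also annotated as a peroxidase, but without the number or the word precursor that the rule asked for. Os11t0112200-01 on chromosome 11, similar to cationic peroxidase 1, was near the floor in Nipponbare at 0.878 and 0.576, from 6 and 3 reads. It stood at 5.71, 6.31 and 6.34 in libraries labelled GW6a-4.6 and 2.64, 2.61 and 2.95 in libraries labelled OsglHAT1-OE. It reached 1 in no Nipponbare library and so passed the filter through the lines, in which it was high. Its separate groups and its log2 changes against Nipponbare, 2.05 (SE 0.29) and 1.12 (SE 0.29), are therefore a description with no test. Its ratios of means, 8.42-fold and 3.76-fold, rest on these few Nipponbare reads.

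Os07t0115300-01 on chromosome 7, annotated as a peroxidase 2 precursor, had 4.68 and 4.99 in Nipponbare, 22.1, 18.2 and 23.0 in libraries labelled GW6a-4.6 and 34.9, 29.5 and 24.5 in libraries labelled OsglHAT1-OE. It rose 4.36-fold (log2 change 1.91, SE 0.20, adjusted p = 1.85e-10) and 6.13-fold (log2 change 2.38, SE 0.20, adjusted p = 5e-13), and the lowest library of each line was more than 3 times the highest of Nipponbare. Os03t0434800-00 on chromosome 3, similar to peroxidase 2, went from 2.59 ± 0.678 to 12.8 ± 1.73 and 6.40 ± 1.97, with log2 changes of 1.94 and 1.02. Os12t0530100-01 on chromosome 12, similar to peroxidase 24, went from 4.25 ± 1.87 to 18.9 ± 3.62 and 12.7 ± 0.747, with log2 changes of 1.95 and 1.43. These rises were all called.

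Loci that share a name did not always move together. Os03t0563600-01, similar to peroxidase 56, had 12 and 10.4 in Nipponbare, 37.1, 38.6 and 30.8 in libraries labelled GW6a-4.6 and 42.0, 43.0 and 36.4 in libraries labelled OsglHAT1-OE. Both lines lay above Nipponbare and overlapped with each other. It rose 3.18-fold (log2 change 1.58, SE 0.16, adjusted p = 1.69e-10) and 3.62-fold (log2 change 1.77, SE 0.16, adjusted p = 7.36e-12). Os09t0507500-01, similar to peroxidase 55, had 7.02 and 4.99, then 26.4, 16.8 and 19.9, then 28.3, 24.8 and 20.6 in the same order of groups. It rose 3.50-fold (log2 change 1.65, SE 0.21, adjusted p = 2.46e-08) and 4.09-fold (log2 change 1.87, SE 0.21, adjusted p = 1.03e-09), again with no overlap with Nipponbare. The other locus similar to peroxidase 55, Os08t0532700-01, had group means of 8.67 ± 2.13, 7.92 ± 1.66 and 7.67 ± 1.66 and was not called in either line.

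The other locus similar to peroxidase 56 fell, and by more than any other member. Os01t0787000-02 on chromosome 1 had 18.6 and 19.8 in Nipponbare, 4.11, 2.48 and 3.44 in libraries labelled GW6a-4.6 and 1.17, 0.782 and 1.03 in libraries labelled OsglHAT1-OE. Behind these were 127 and 103 reads, then 23, 13 and 19, then 8, 6 and 7. The groups did not overlap, and libraries labelled OsglHAT1-OE were the lowest. It was 5.74-fold lower in libraries labelled GW6a-4.6 (log2 change -2.23, SE 0.28, adjusted p = 2.87e-08) and 19.3-fold lower in libraries labelled OsglHAT1-OE (log2 change -3.34, SE 0.28, adjusted p = 1.31e-12). The peroxidase 56 name therefore covers 1 locus that rose and 1 that fell in both lines.

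**Figure D3:**
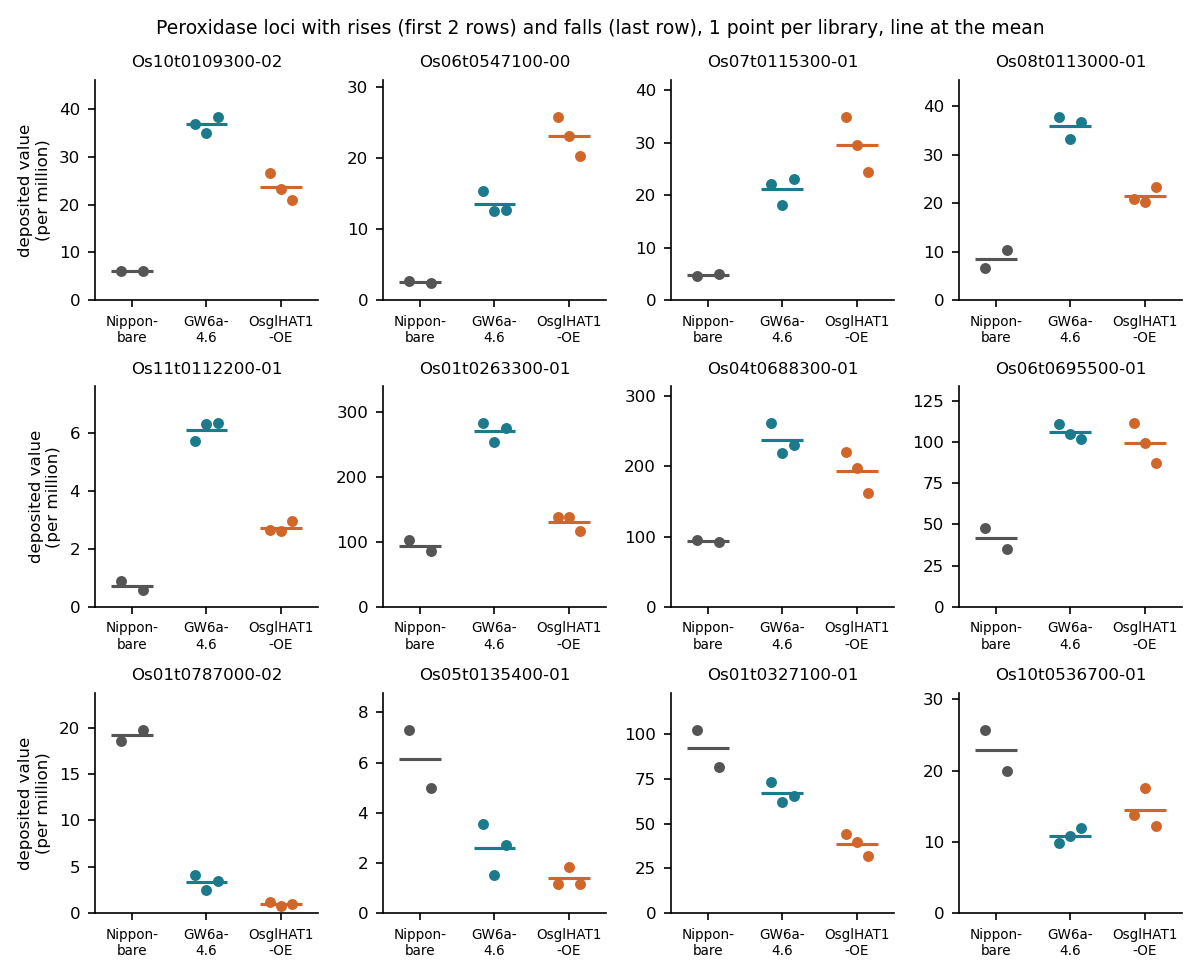
Deposited value in each library of 8 members that rose (upper 2 lines of panels) and 4 that fell (lowest line), by group, with 1 point per library and a line at the group mean, each panel with its own linear axis from 0. Os01t0787000-02 goes from a mean of 19.2 to 3.34 and 0.996, while the 6 libraries of the lines stand above Nipponbare in each panel of a riser. Os11t0112200-01 passed the filter through the libraries of the lines alone, so its panel is a description and its calls against Nipponbare are no support.

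Other falls were smaller. Os10t0536700-01, similar to peroxidase 1, had 25.7 and 19.97 in Nipponbare, 9.82, 10.9 and 12 in libraries labelled GW6a-4.6 and 13.8, 17.6 and 12.2 in libraries labelled OsglHAT1-OE. Both lines lay below Nipponbare without overlap. It was 2.10-fold lower in libraries labelled GW6a-4.6 (log2 change -1.0, SE 0.21, adjusted p = 0.000121) and 1.57-fold lower in libraries labelled OsglHAT1-OE (log2 change -0.62, SE 0.21, adjusted p = 0.0111), and the second call was lost without Nipponbare replicate 1. Os02t0833900-02, similar to class III peroxidase 32, was called lower in libraries labelled GW6a-4.6 and not in libraries labelled OsglHAT1-OE. Its values were 15.5 and 16.1 in Nipponbare, 8.21, 7.65 and 6.16 in libraries labelled GW6a-4.6 and 16.1, 13.2 and 11.6 in libraries labelled OsglHAT1-OE. The first and last groups overlapped and libraries labelled GW6a-4.6 lay below both, 2.16-fold under Nipponbare (log2 change -1.02, SE 0.22, adjusted p = 0.000212). Os01t0294700-01, a haem peroxidase, showed 30.3 and 22.7 in Nipponbare, 16.6, 14.1 and 17.4 in libraries labelled GW6a-4.6 and 28.6, 28.3 and 24.6 in libraries labelled OsglHAT1-OE, and its fall in libraries labelled GW6a-4.6 (log2 change -0.68, SE 0.18, adjusted p = 0.00173) was likewise lost without Nipponbare replicate 1.

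The 6 members with the highest mean value over the libraries did not behave alike. The deposited values are not per length, so this choice tells where most reads fell and not which gene is most expressed. Os01t0263300-01, described above, is among them. Os04t0688300-01, a haem peroxidase on chromosome 4, had 94.6 and 92.9 in Nipponbare, 261, 219 and 230.4 in libraries labelled GW6a-4.6 and 220.3, 198 and 163 in libraries labelled OsglHAT1-OE. Both lines stood clear of Nipponbare, at 2.53-fold (log2 change 1.32, SE 0.10, adjusted p = 2.43e-13) and 2.06-fold (log2 change 1.03, SE 0.10, adjusted p = 1.27e-10). Os01t0962700-01, similar to peroxidase 12, had 85.1 and 65.5, then 197, 165 and 163, then 130.3, 130.4 and 104. It rose 2.32-fold (log2 change 1.21, SE 0.12, adjusted p = 4.04e-11) and 1.61-fold (log2 change 0.69, SE 0.12, adjusted p = 4.74e-06), with all 3 groups separate. Os06t0695500-01, similar to peroxidase 16, had 48 and 35.3 in Nipponbare, 111, 105 and 102 in libraries labelled GW6a-4.6 and 111, 99.4 and 87.3 in libraries labelled OsglHAT1-OE, and its rises of 2.54-fold and 2.38-fold were both called. Os12t0178100-01, a haem peroxidase, rose 1.58-fold and 1.60-fold from a Nipponbare mean of 67.6 ± 9.74. Os05t0134400-02, similar to peroxidase 1, was not called in any comparison, with 150.4 and 137 in Nipponbare, 149.8, 160.2 and 152 in libraries labelled GW6a-4.6 and 165, 149.6 and 143 in libraries labelled OsglHAT1-OE.

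The lines were then compared with each other. Of the 73 members, 10 were higher and 23 lower in libraries labelled OsglHAT1-OE than in libraries labelled GW6a-4.6, 13.7% and 31.5%. Over all loci 7.69% were higher and 24.7% lower, 32.4% together. The median log2 difference of the members was -0.17 beside -0.13 over all loci. The split depends on the scaling between libraries. With median-ratio factors, which moved the median of all loci to 0.01, the members split into 16 higher and 18 lower, and all loci into 18.7% higher and 18.6% lower. Without OsglHAT1-OE replicate 3 the split was 12 and 17, where all loci stood at 10.4% higher and 19.4% lower. By overlap alone, 10 members lay wholly above and 26 wholly below, against 11.3% and 31.4% of all loci, 42.7% together. The members' split was near that of all loci, and is given as no result about the family.

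The member with the smallest adjusted p in this comparison was Os06t0274800-01 on chromosome 6, similar to peroxidase 11. It had 32.9 and 35.9 in Nipponbare, 55.9, 52.8 and 50.9 in libraries labelled GW6a-4.6 and 15.6, 15.8 and 16.1 in libraries labelled OsglHAT1-OE. The 3 groups were far apart, with Nipponbare between the lines. It rose 1.55-fold in libraries labelled GW6a-4.6 (log2 change 0.61, SE 0.15, adjusted p = 0.000886) and was 2.18-fold lower in libraries labelled OsglHAT1-OE (log2 change -1.07, SE 0.15, adjusted p = 1.38e-07). The lines differed 3.37-fold (log2 change -1.69, SE 0.13, adjusted p = 6.68e-13). Each of these calls held under all the alternatives run for it.

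**Figure D4:**
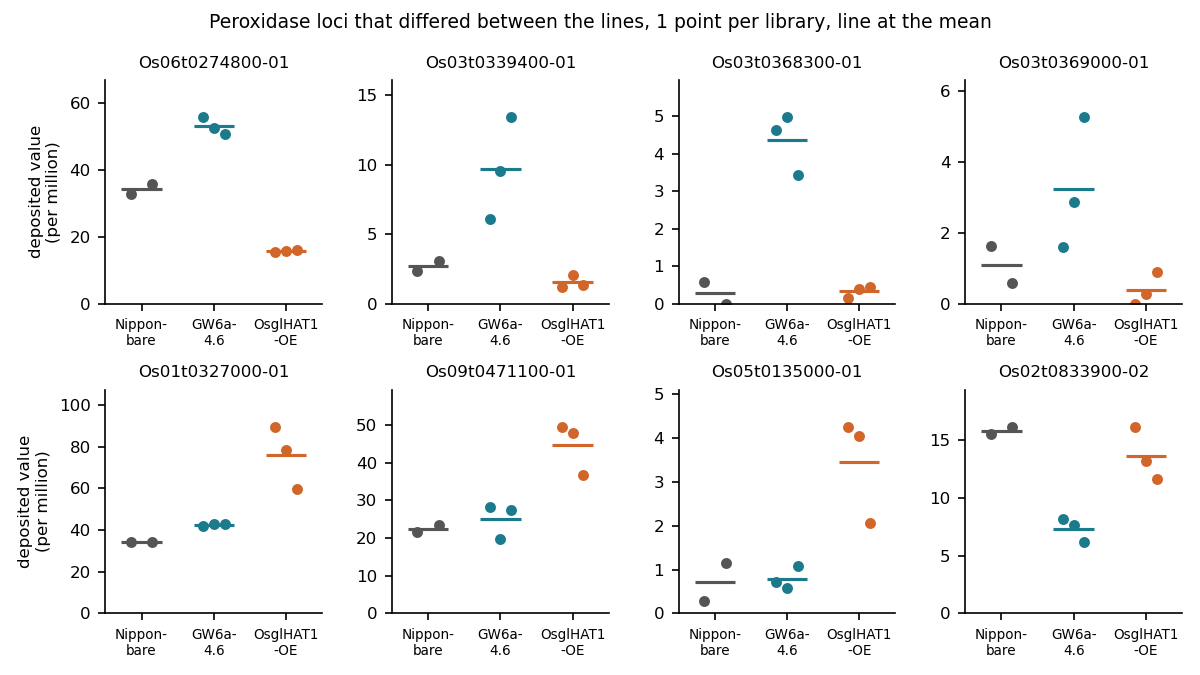
Deposited value in each library of 8 members called different between the lines, by group, with 1 point per library and a line at the group mean, each panel with its own linear axis from 0. Os06t0274800-01 shows Nipponbare at a mean of 34.4 between 53.2 and 15.8 in the lines. Os03t0368300-01 passed the filter through the libraries labelled GW6a-4.6 alone, so its panel is a description and its call is no support.

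Other members were lower in libraries labelled OsglHAT1-OE than in libraries labelled GW6a-4.6. Os03t0339400-01, a haem peroxidase on chromosome 3, had 2.34 and 3.07 in Nipponbare, 6.07, 9.56 and 13.4 in libraries labelled GW6a-4.6 and 1.17, 2.09 and 1.33 in libraries labelled OsglHAT1-OE. The 3 libraries labelled GW6a-4.6 spread more than 2-fold among themselves and lay above all others. It rose 3.58-fold (log2 change 1.47, SE 0.31, adjusted p = 0.000123), was not called in libraries labelled OsglHAT1-OE against Nipponbare (log2 change -0.56, SE 0.31, adjusted p = 0.123), and differed 6.33-fold between the lines (log2 change -2.04, SE 0.27, adjusted p = 1.84e-07). Os01t0263300-01 was 2.07-fold lower in libraries labelled OsglHAT1-OE than in libraries labelled GW6a-4.6 (log2 change -1.05, SE 0.09, adjusted p = 6.35e-12). Os11t0112200-01 was lower by 2.24-fold (log2 change -0.93, SE 0.26, adjusted p = 0.00511) and Os08t0113000-01 by 1.67-fold (log2 change -0.72, SE 0.16, adjusted p = 0.000743).

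In the other direction, Os06t0547100-00 was 1.70-fold higher in libraries labelled OsglHAT1-OE (log2 change 0.73, SE 0.19, adjusted p = 0.00339) and Os09t0471100-01 1.78-fold higher (log2 change 0.81, SE 0.15, adjusted p = 4.72e-05). Os07t0104500-01, a haem peroxidase with few reads, had 0.293 and 1.54 in Nipponbare, 0, 1.53 and 1.09 in libraries labelled GW6a-4.6 and 4.11, 2.61 and 2.80 in libraries labelled OsglHAT1-OE. Its libraries labelled OsglHAT1-OE lay above all others (log2 change 1.24, SE 0.33, adjusted p = 0.00338 against GW6a-4.6, lost without GW6a-4.6 replicate 1), and its rise over Nipponbare (log2 change 1.19, SE 0.37, adjusted p = 0.00694) was lost without Nipponbare replicate 1. Os02t0833900-02 differed by 1.86-fold (log2 change 0.81, SE 0.20, adjusted p = 0.00143) and Os01t0294700-01 by 1.69-fold (log2 change 0.73, SE 0.16, adjusted p = 0.000413), both with libraries labelled GW6a-4.6 as the low group.

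Rice peroxidase genes often lie in arrays of near copies, and locus numbers were used as a guide to position. In the identifiers the first 2 digits give the chromosome and the following digits the order along it. Members whose numbers differ by no more than 1000 from the next were grouped, which put 30 members into 9 groups. The other 43 had no neighbouring member. Peroxidase loci outside the members were not used here, so a member left alone may still have peroxidase neighbours. The wider list described below holds such neighbours of Os04t0688300-01, Os06t0547100-00, Os07t0677500-00, Os10t0109300-02, Os11t0112200-01, Os01t0263300-01, Os01t0962700-01, Os03t0339400-01 and Os08t0532700-01, among other members. Near-identical copies can share reads, since a read may be counted at several models. Values within a group, or beside a peroxidase locus outside the members, may therefore not be independent. The genome build of the models is IRGSP-1.0 per the submitters' processing notes, and coordinates were not used here.

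The group of 6 on chromosome 5 held risers, a faller and a member with no call side by side. Os05t0135500-01 had 28.1 and 24.6 in Nipponbare, 80.0, 70.3 and 69.2 in libraries labelled GW6a-4.6 and 55.0, 54.3 and 44.1 in libraries labelled OsglHAT1-OE, with all groups separate. It rose 2.78-fold (log2 change 1.44, SE 0.13, adjusted p = 1.99e-11) and 1.94-fold (log2 change 0.93, SE 0.13, adjusted p = 2.94e-07). Its neighbour Os05t0135400-01 ran the other way, with 7.31 and 4.99, then 3.57, 1.53 and 2.72, then 1.17, 1.83 and 1.18. It was 2.36-fold lower in libraries labelled GW6a-4.6 (log2 change -1.01, SE 0.32, adjusted p = 0.00809), a call lost without Nipponbare replicate 1 or GW6a-4.6 replicate 2, and 4.42-fold lower in libraries labelled OsglHAT1-OE (log2 change -1.57, SE 0.32, adjusted p = 6.31e-05). Os05t0135000-01 was near the floor in Nipponbare and libraries labelled GW6a-4.6, at 0.293 and 1.15 and at 0.714, 0.573 and 1.09, and stood at 4.26, 4.04 and 2.06 in libraries labelled OsglHAT1-OE (log2 change 1.38, SE 0.34, adjusted p = 0.000861 against Nipponbare, lost without Nipponbare replicate 1). Os05t0134700-02 had log2 changes of 0.82 and 0.69, both called, the first lost without Nipponbare replicate 2 or GW6a-4.6 replicate 3 and the second under 6 alternatives. Os05t0135200-01 had 1.02 and 0.75, both called, the second lost without Nipponbare replicate 1. Os05t0134400-02 is the member with many reads and no call.

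In the group of 5 on chromosome 3, 3 members were called higher in libraries labelled GW6a-4.6, and each comes with a limit. The first 2 below reached 1 in no other group and so passed the filter through the libraries in which they were high, and their values are given as a description with no test. Os03t0368300-01, similar to peroxidase 1, had 0.585 and 0 in Nipponbare, 4.64, 4.97 and 3.44 in libraries labelled GW6a-4.6 and 0.147, 0.391 and 0.442 in libraries labelled OsglHAT1-OE. These rest on 4 and 0 reads, then 26, 26 and 19, then 1, 3 and 3, so both low groups were near the floor. Os03t0368000-00, also similar to peroxidase 1, had 0.293 and 0, then 2.5, 5.35 and 2.90, then 0.147, 0.391 and 0.442. It had 2 reads in all of Nipponbare, and no ratio is given for it. This pair had the same read counts in each OsglHAT1-OE library, and whether they share those reads was not tested. Os03t0369000-01 had 1.61 and 0.576, then 1.61, 2.87 and 5.25, then 0, 0.261 and 0.884, and its rise (log2 change 0.97, SE 0.37, adjusted p = 0.0296) was lost under 5 alternatives, with edgeR and DESeq2 among them. Os03t0368900-01 and Os03t0369600-00 were not called.

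**Figure D5:**
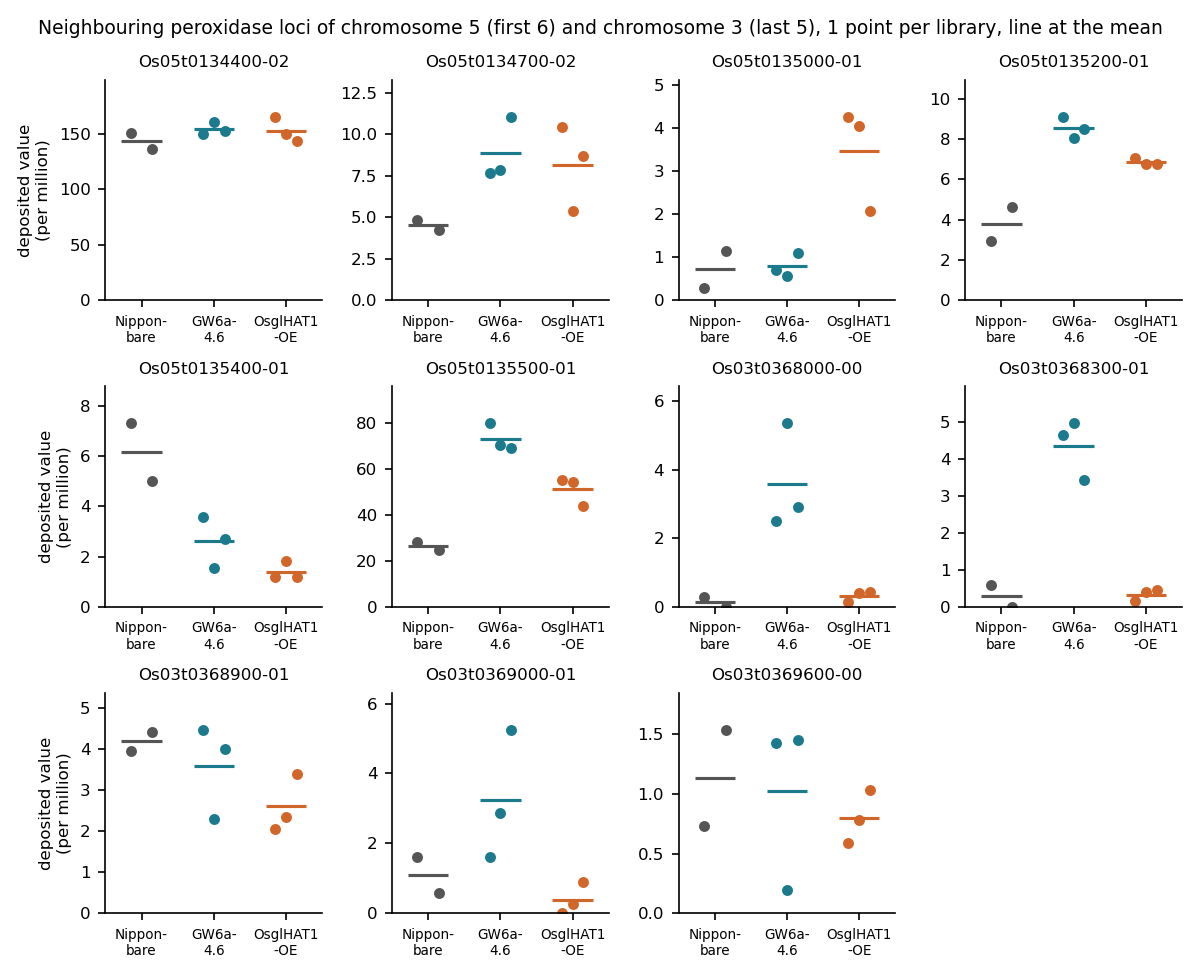
Deposited value in each library of the 6 neighbouring members on chromosome 5 and the 5 on chromosome 3, by group, with 1 point per library and a line at the group mean, each panel with its own linear axis from 0. Os05t0135500-01 stands above Nipponbare in both lines and its neighbour Os05t0135400-01 below, while Os03t0368300-01 is high in the libraries labelled GW6a-4.6 alone.

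Os03t0368000-00, Os03t0368300-01 and Os07t0677500-00 on chromosome 7 were the 3 members that reached 1 in no group but libraries labelled GW6a-4.6. They passed the filter through that group, so part of their difference from the others follows from the filter. They are among the 38 risers and among the 23 members lower in libraries labelled OsglHAT1-OE than in libraries labelled GW6a-4.6. Without them, 35 of 70 members rose and 7 fell in libraries labelled GW6a-4.6, and 20 were lower and 10 higher between the lines. Without the members that reached 1 in no Nipponbare library, 32 of 63 rose in libraries labelled GW6a-4.6 and 33 of 63 in libraries labelled OsglHAT1-OE, with 7 and 5 lower. Both selections were made after the values had been seen. By their identifiers these 3 members lie on chromosomes 3 and 7, while the gene behind both lines is on chromosome 6. The members on chromosome 6 number 12, and whether any member lies in the Kasalath segment was not tested.

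The group of 5 on chromosome 6, Os06t0521200-00 to Os06t0522300-01, was low in all libraries and had no call against Nipponbare. Between the lines, Os06t0521500-02 was lower, at 2.27 ± 0.453 against 4.57 ± 0.839 (log2 change -0.77, SE 0.26, adjusted p = 0.0217) and so was Os06t0522300-01, at 0.343 ± 0.307 against 1.40 ± 0.711 (log2 change -0.82, SE 0.32, adjusted p = 0.0461). The first call was lost under 6 alternatives and the second under 11.

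The group of 4 on chromosome 1 held members that moved in opposite directions next to each other. Os01t0327000-01, similar to class III peroxidase 14, had 34.2 and 34.2 in Nipponbare, 42.1, 42.6 and 42.7 in libraries labelled GW6a-4.6 and 89.4, 78.2 and 59.8 in libraries labelled OsglHAT1-OE. Every library labelled OsglHAT1-OE lay above the others. It rose 2.22-fold in libraries labelled OsglHAT1-OE (log2 change 1.11, SE 0.14, adjusted p = 1.7e-08) and was not called in libraries labelled GW6a-4.6 (log2 change 0.31, SE 0.14, adjusted p = 0.0716). The next locus, Os01t0327100-01, had 102 and 81.4, then 73.4, 61.7 and 65.2, then 44.2, 39.5 and 32.1. The groups were separate and descended in that order. It was 2.38-fold lower in libraries labelled OsglHAT1-OE (log2 change -1.23, SE 0.14, adjusted p = 7.83e-10), and 1.38-fold lower in libraries labelled GW6a-4.6 (log2 change -0.45, SE 0.14, adjusted p = 0.00636), a call lost without Nipponbare replicate 1. Os01t0326000-02, similar to class III peroxidase 13, rose with log2 changes of 1.39 and 1.62, and Os01t0326300-01 with 1.17 and 1.2.

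At the low end, the member with the lowest mean was Os06t0490400-00, similar to class III peroxidase 80, which was not called. The last loci inside the filter had a second-highest value of 1.04 (Os06t0490400-00), 1.09 (Os07t0531400-01), 1.15 (Os06t0521900-00) and 1.30 (Os02t0741200-01). The first outside it had 0.881 (Os05t0134800-00), 0.782 (Os08t0302000-01), 0.768 (Os07t0157000-00) and 0.737 (Os06t0237600-00). Of the 96 loci matched, 23 were left out in this way, 1 of them with no reads in any library, and none of the 23 reached above 1.76 in any library. Of the 73 members, 48 reached 5 in 2 or more libraries. For 15 member loci with several models, the group means of 17 further models were set beside those of the member, with no test of their own. Where the member was called, the further model lay in the member's direction in 12 of 12, 7 of 7 and 8 of 8 cases for GW6a-4.6 against Nipponbare, OsglHAT1-OE against Nipponbare and between the lines. Over all 17 models, called members or not, it did so in 15, 16 and 15.

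A wider list of all loci annotated as peroxidases, without glutathione, ascorbate, thioredoxin, hydroperoxide and haloperoxidase types, was drawn up after the values had been seen. It held 108 tested loci. In libraries labelled GW6a-4.6 62 rose and 8 fell, 57.4% and 7.41%, where all loci stood at 26.7% and 19.5%. In libraries labelled OsglHAT1-OE 56 rose and 6 fell, 51.9% and 5.56%, where all loci stood at 22.8% and 29.7%. Between the lines 15 were higher and 39 lower in libraries labelled OsglHAT1-OE, 13.9% and 36.1%, where all loci stood at 7.69% and 24.7%. With median-ratio factors that split was 22 higher and 32 lower, where all loci stood at 18.7% and 18.6%. The 35 loci it adds to the members gave 24 higher and 1 lower, then 19 and 1, then 5 and 16, the last 6 and 14 with median-ratio factors. Its median log2 changes were 0.80, 0.52 and -0.27, where all loci had 0.07, -0.08 and -0.13.

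The enzymes that supply and remove the substrate of peroxidases were counted from annotation lists. Producers of superoxide or hydrogen peroxide (oxidases, superoxide dismutases and germin-like proteins) numbered 56 tested loci, of which 16 rose and 9 fell in libraries labelled GW6a-4.6 and 14 rose and 25 fell in libraries labelled OsglHAT1-OE. The shares were 28.6% and 16.1% in the first comparison, near the 26.7% and 19.5% of all loci, and 25.0% and 44.6% in the second, where all loci stood at 22.8% and 29.7%. Their median log2 changes were 0.09 and -0.29. The germin-like protein 8-12 locus Os08t0231400-01 had 45.1 and 45.3 in Nipponbare, 1440, 1400 and 1390 in libraries labelled GW6a-4.6, and 194, 186 and 160 in libraries labelled OsglHAT1-OE, a rise of 31.2-fold (adjusted p = 1.6e-33) and 3.99-fold. The germin-like protein 8-7 locus Os08t0189600-01 stood at 42.9 and 44.9, then 41.2, 40.9 and 42.7, then 6.75, 4.56 and 5.16, so that libraries labelled OsglHAT1-OE alone were low (log2 change -2.80 from Nipponbare).

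Removal enzymes (catalases, ascorbate and glutathione peroxidases, peroxiredoxins) numbered 23 tested loci, with 4 higher and 8 lower in libraries labelled GW6a-4.6, 4 and 10 in libraries labelled OsglHAT1-OE, and median log2 changes of -0.03 and -0.37. The shares were 17.4% and 34.8%, then 17.4% and 43.5%, against the same shares of all loci. Within the ascorbate peroxidases, Os03t0285700-01 rose (590 and 563, then 1430, 1350 and 1380, then 1650, 1560 and 1310), with log2 changes of 1.27 and 1.38. Os07t0694700-01 fell (888 and 821, then 350, 339 and 370, then 245, 243 and 216), with log2 changes of -1.27 and -1.86. A 1-Cys peroxiredoxin, Os07t0638400-01, had 27.4 and 25.2, then 48.6, 37.8 and 49.1, then 1.47, 1.04 and 0.590, a 43.7-fold difference between the lines.

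Laccases, which oxidise monolignols without hydrogen peroxide, and dirigent proteins, which guide the coupling of the radicals, numbered 19 tested loci. Of these, 13 rose and none fell in libraries labelled GW6a-4.6, with a median log2 change of 0.89, and 8 rose and 2 fell in libraries labelled OsglHAT1-OE, with a median of 0.55. The shares higher were 68.4% and 42.1%, where all loci stood at 26.7% and 22.8%. Between the lines 10 were lower in libraries labelled OsglHAT1-OE and 0 higher, against 24.7% and 7.69% of all loci. With median-ratio factors, which gave 18.6% lower and 18.7% higher over all loci, 8 were lower and 0 higher. The laccase locus Os05t0458600-01 had 6.0 and 5.57 in Nipponbare, 26.8, 28.3 and 31.3 in libraries labelled GW6a-4.6, and 12.8, 15.6 and 12.7 in libraries labelled OsglHAT1-OE, with no overlap of groups and a rise of 4.98-fold in the first line. The laccase-25 locus Os12t0257600-00 had 26.3 and 25.2, then 30.7, 30.2 and 32.1, then 2.05, 3.13 and 2.51, so that libraries labelled OsglHAT1-OE alone were low, with a log2 change of -2.92 from Nipponbare.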

How the data were processed

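Transcripts were measured in 8 libraries of shoot apical meristem, made as single-end TruSeq libraries from DNase-treated total RNA, per the labels' protocols. The deposited signal per transcript model is called RPM per the file headers. Bowtie, edgeR and the build IRGSP-1.0 are named in the submitters' processing notes, without versions. In each library 100% of values were multiples of 1 read's worth (tolerance 0.01), which gave whole reads back. The columns summed to 2411271 to 2690367, so a read may have been counted at several models, and paralogs or isoforms may share reads. The test had been planned for RPM and was kept, although the unit is a signal.

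limma 3.58.1 in R 4.3.3 was fitted to log2 of the deposited signal plus 1 at the 31487 loci reaching 1 in 2 or more libraries. A single model with group means and a trended prior took the 8 libraries without further scaling. Benjamini-Hochberg adjustment ran over all loci at 0.05. Folds are ratios of group means. The fit was tested on simulated data. Alternatives were other pseudocounts, filters and scalings, edgeR 4.0.16 and DESeq2 1.42.0 on the recovered reads, summed models, a replicate block, fits to the groups compared alone, and each library left out.

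The members, lists and tests were chosen with earlier results of these data known. Named members were, per comparison, the 5 strongest risers and 5 strongest fallers among called members without overlap, then the 6 with the highest mean, the lowest, those at the filter's edge and the 3 neighbour groups with the most members. From the related lists, some of the loci with the smallest adjusted p in each comparison were named, and the others were not. Other members of the chromosome 1 group, loci set beside a member of the same name, Os03t0434800-00, Os12t0530100-01 and Os07t0677500-00 were chosen after their values were seen. Floors cover counting error only. Sequences were not used here.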

Additional observations from a re-analysis of the deposited data

Results flagged for a closer look

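Os06t0274800-01, similar to peroxidase 11, differed between the lines under the same contrast with Nipponbare. It was higher than Nipponbare in all 3 libraries labelled GW6a-4.6 (log2 change 0.61) and lower in all 3 labelled OsglHAT1-OE (log2 change -1.07). The test of the difference itself gave a log2 change of -1.69 between the lines (limma, SE 0.13, adjusted p = 6.68e-13). The groups had too few libraries for a search for single outlying samples.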

How the results depend on the processing

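The counts of members called were recomputed under each alternative. Against Nipponbare the counts of risers stayed within 1.5 times of 38 and 37 under all alternatives on the members. A filter at 5 kept 48 members and gave 32 risers in each line, where 29.8% and 25.5% of all loci rose. The wider list, chosen after seeing the data, gave 62 and 56 of 108 loci. Leaving out each library of the lines in turn gave 35 to 40 risers and 5 to 7 fallers for GW6a-4.6. For OsglHAT1-OE it gave 32 to 37 risers and 5 fallers. Without the 3 members that reached 1 in 1 group alone, or without those that reached 1 in no Nipponbare library, both chosen after seeing the data, the risers numbered 35 or 32 (GW6a-4.6) and 37 or 33 (OsglHAT1-OE). Without single libraries of the lines, 23.8% to 28.8% of all loci rose and 17.4% to 21.4% fell for GW6a-4.6. For OsglHAT1-OE these shares were 19.6% to 25.6% and 26.6% to 29.9%. Without a Nipponbare library, a single control library was left, and fewer members and fewer of all loci were called. Between the lines, leaving out each library of the lines gave 7 to 12 higher and 17 to 23 lower. All loci then ran from 5.05% to 10.4% higher and from 19.4% to 23.6% lower. That comparison also moved with the scaling. Median-ratio factors gave 16 higher and 18 lower, against 18.7% and 18.6% of all loci. edgeR on the recovered reads gave 16 and 18, against 19.3% and 18.6%. DESeq2 gave 14 and 15, against 16% and 16.2%. The wider list gave 15 and 39 under the main fit, against 7.69% and 24.7%. edgeR called 15662, 17645 and 11918 of the 31487 loci in the 3 comparisons. The replicate block gave 38 higher and 6 lower, 36 and 6, and 11 and 26. All loci stood at 28.5% and 18.2%, 24% and 28.1%, and 8.49% and 26.2% there. Same-numbered libraries deviated together with a correlation of at most 0.0648, so the numbers were not taken to pair them. Of the named changes that were called, 1322 results under an alternative stayed called in the same direction, 50 lost the call and 0 reversed. Many named changes were chosen as the strongest calls in these same libraries. Some alternatives left out a library of neither group compared, which leaves the log2 change as it was. The tally is thus no measure of how firm the calls are. The cause of the moved counts was not tested. Members near the floor of 3 reads rest on few reads, and with 2 control libraries the size of their changes is imprecise.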
